A study of Mus musculus with 10 samples.

Results

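The 51 genes described here encode the proteasome and its helpers: every gene whose symbol starts with Psma, Psmb, Psmc, Psmd, Psme, Psmf or Psmg followed by a number, out of 19271 genes measured in mouse liver. Of these genes, 49 encode subunits, activators, an inhibitor or assembly factors, and the symbols Psmc3ip and Psme3ip1 name proteins that bind a subunit or an activator. By role they comprise 14 standard subunits of the 20S core (7 alpha, 4 non-catalytic beta and 3 catalytic beta), 17 subunits of the 19S cap (6 ATPases and 11 others), 3 catalytic subunits of the immunoproteasome and 3 PA28 alpha or beta genes. The rest are 3 other activators or inhibitors, 3 chaperones of 19S assembly, 4 chaperones of 20S assembly and 2 tissue-specific core subunits.

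The livers came from C57BL6/N mice at 2 months of age. They differ in HtrA2/Omi, a serine protease of mitochondria encoded by Htra2, in which S400D exchanges a serine for an aspartate. The males were wild type (WT/WT), heterozygous (S400D/WT) or homozygous (S400D/S400D), with 3 animals of each of the 3 genotypes. The last animal was 1 homozygous female, whose values are given without a test. The labels number the replicates of a genotype without saying how they arose, and each is taken here as 1 animal. The p-values below reflect the spread among these samples alone.

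The proteasome is the protease that removes ubiquitin-tagged proteins from the cytosol and nucleus, and in the liver it turns over short-lived regulators and misfolded proteins. Its core is a barrel of alpha and beta rings with the active sites inside, and the 19S cap recognises ubiquitin, unfolds the substrate with its ring of ATPases and feeds it into the barrel. Interferons replace the standard catalytic subunits by those of the immunoproteasome and raise PA28, which favours peptides that fit MHC class I, while the transcription factor NRF1 raises the whole set of standard genes when proteasome activity falls short.

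Libraries held 16240441 to 17264289 expected counts, the estimated reads per gene. All 10 hepatocyte markers were detected, as the tissue label requires. They took 91758 to 154802 CPM (counts scaled to library size) in sum in the males, and 6 of the 10 were higher and 4 lower in homozygous than in wild-type males (median log2 fold change 0.08). Htra2 stood at 14.0 ± 2.82 CPM in wild types, 15.9 ± 0.748 in heterozygotes and 14.9 ± 0.586 in homozygotes (SD, n = 3 males each), but the mutation changes the protein, so this level does not check the genotype. The mean transcript length of a library, weighted by FPKM, was 1272 to 1381 bases in wild-type and heterozygous males and 1439 to 1460 in homozygous males. The homozygous males and heterozygous male 2 also had high Arntl (17.4 to 38.1 CPM, against 1.17 to 4.25 in the other males) and low Dbp (1.27 to 12.9 CPM, against 105 to 247). Both are clock genes, and 4 of the 5 clock genes listed were lower in homozygous than in wild-type males, with a median log2 fold change of -2.53. The part of transcript length and clock phase in the results below was not tested except where stated.

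Of the 51 genes, 47 had enough reads to be tested. The other 4 stayed near 0: Psma8, an alpha subunit of the testis, reached at most 9 counts in any library, Psmb11, the catalytic subunit of the thymus, 1 count, Psmc3ip 6 counts and Psme2b, a near copy of Psme2, 11 counts. Reads of Psme2 and Psme2b, and those of genes with processed copies such as Psmb5 and Psmb6, may have been split between the copies by the authors' counting, so their levels carry that uncertainty.

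Promoter windows were taken from RefSeq (build GRCm38.p6, 250 bases before to 50 after the annotated start). Those of the interferon-inducible genes Psmb10, Psme1, Psme2 and Psmb8 and of the standard subunit Psmb5 are printed. The window of Psmb9, also interferon-inducible, is not printed. Of the 51 genes, 43 had a window. Capitals mark matches, on either strand, to the core of the interferon-stimulated response element (GAAA, any 2 bases, GAAA), the gamma-activated site (TTCNNNGAA) or the core of the antioxidant response element (TGACNNNGC, the site type that NRF1 and NRF2 bind). The Psmb10 window lies at chr8:105938343-105938642 on the minus strand, Psme1 at chr14:55578244-55578543 on the plus strand, Psme2 at chr14:55591052-55591351 on the minus strand, Psmb8 at chr17:34197945-34198244 on the plus strand and Psmb5 at chr14:54617946-54618245 on the minus strand.
Psmb10: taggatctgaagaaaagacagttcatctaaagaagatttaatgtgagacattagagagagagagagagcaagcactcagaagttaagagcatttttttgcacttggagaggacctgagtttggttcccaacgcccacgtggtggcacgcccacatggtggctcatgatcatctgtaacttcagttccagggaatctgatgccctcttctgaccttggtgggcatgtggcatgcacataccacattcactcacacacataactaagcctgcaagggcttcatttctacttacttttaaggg
Psme1: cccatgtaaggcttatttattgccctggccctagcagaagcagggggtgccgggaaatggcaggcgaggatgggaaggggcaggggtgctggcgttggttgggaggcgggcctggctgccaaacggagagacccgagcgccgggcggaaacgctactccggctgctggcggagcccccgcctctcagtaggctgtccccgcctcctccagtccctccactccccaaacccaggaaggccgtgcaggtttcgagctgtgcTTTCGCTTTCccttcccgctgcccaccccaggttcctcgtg
Psme2: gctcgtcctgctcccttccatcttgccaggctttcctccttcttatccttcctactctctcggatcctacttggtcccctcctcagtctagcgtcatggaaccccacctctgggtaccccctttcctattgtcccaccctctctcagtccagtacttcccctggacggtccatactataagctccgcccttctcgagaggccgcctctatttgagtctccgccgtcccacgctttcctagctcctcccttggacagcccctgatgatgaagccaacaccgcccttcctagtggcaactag
Psmb8: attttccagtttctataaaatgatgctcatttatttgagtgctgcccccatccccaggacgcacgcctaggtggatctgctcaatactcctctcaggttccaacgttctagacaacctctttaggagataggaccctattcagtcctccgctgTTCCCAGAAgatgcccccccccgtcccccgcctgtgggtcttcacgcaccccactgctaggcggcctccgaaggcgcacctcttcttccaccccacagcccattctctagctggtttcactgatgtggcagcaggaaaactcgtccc
Psmb5: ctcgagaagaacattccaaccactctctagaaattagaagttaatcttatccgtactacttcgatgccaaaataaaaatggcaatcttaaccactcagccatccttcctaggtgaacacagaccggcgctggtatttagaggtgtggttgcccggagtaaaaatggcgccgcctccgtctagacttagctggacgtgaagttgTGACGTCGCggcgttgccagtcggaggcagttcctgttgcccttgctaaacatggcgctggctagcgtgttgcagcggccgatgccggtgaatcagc

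The Psme1 window held the interferon-stimulated core downstream of the start, the Psmb8 window a gamma-activated site upstream of it, and the Psmb5 window an antioxidant core upstream of it. None of these letters was found in the Psmb10, Psme2 and Psmb9 windows, which says nothing about sites elsewhere or about the factors. Over the 43 genes, the interferon-stimulated core was found in 5 (Psmb3, Psmd4, Psmd9, Psme1 and Psmg4) and in 3.44% of all 32851 windows. The gamma-activated site was found in 3 (Psmb8, Psmd2 and Psmg1) and in 8.3% of all windows, and the antioxidant core in 6 (Psmb5, Psmb6, Psmc6, Psmd12, Psmd9 and Psme4) and in 12.4%. By group, the interferon-stimulated core was in 1 of 5 interferon-inducible genes and in 4 of 38 other genes with a window. The gamma-activated site was in 1 of 5 and 2 of 38, and the antioxidant core in 0 of 5 and 6 of 38. A match is a description of the letters and not a site shown to be bound.

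Per transcript length, the core was the most abundant layer in wild-type liver. In TPM (transcript abundance scaled to length and to a fixed sum; mean ± SD, n = 3), the 3 catalytic beta subunits stood at 307 ± 18.4 for Psmb7 (trypsin-like), 242 ± 25.4 for Psmb5 (chymotrypsin-like) and 186 ± 22.3 for Psmb6 (caspase-like). The non-catalytic beta genes ran from Psmb3 at 271 ± 24.5 to Psmb2 at 118 ± 9.48. The 7 alpha genes, whose products form the gate of the barrel, spanned 103 ± 15.0 (Psma5) to 175 ± 14.3 (Psma3), a range of 1.7-fold. Of the Psma3 reads 9.59% stood on curated RefSeq transcripts and the rest on predicted ones. Psma3, Psma4 and Psma6, at 175, 171 and 171 TPM, did not differ beyond their SDs.

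The genes of the 19S cap lay lower, at 64.7 (Psmc6) to 114 (Psmc1) for the ATPases and 51.4 (Psmd1) to 139 (Psmd4, a ubiquitin receptor) for the other subunits. Dedicated assembly factors were rarer still, at 12.8 (Psmd10) to 21.3 (Psmd9) for the 19S chaperones and 15.4 (Psmg2) to 29.0 (Psmg1) for the 20S chaperones. Curated transcripts held 50.0% of the reads of Psmd10 and of Psmg1. The nuclear activator Psme3 stood at 31.2, the large activator Psme4 (PA200) at 19.3 and the inhibitor Psmf1 (PI31) at 13.2 TPM. The PA28 genes lay in the range of the core, with Psme2 at 218 ± 18.6 and Psme1 at 170 ± 27.6 TPM. The 3 immunoproteasome genes were close to each other, with Psmb10 at 46.4 ± 7.46, Psmb8 at 41.7 ± 5.18 and Psmb9 at 39.0 ± 10.6 TPM, and did not differ beyond their SDs.

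**Figure D1:**
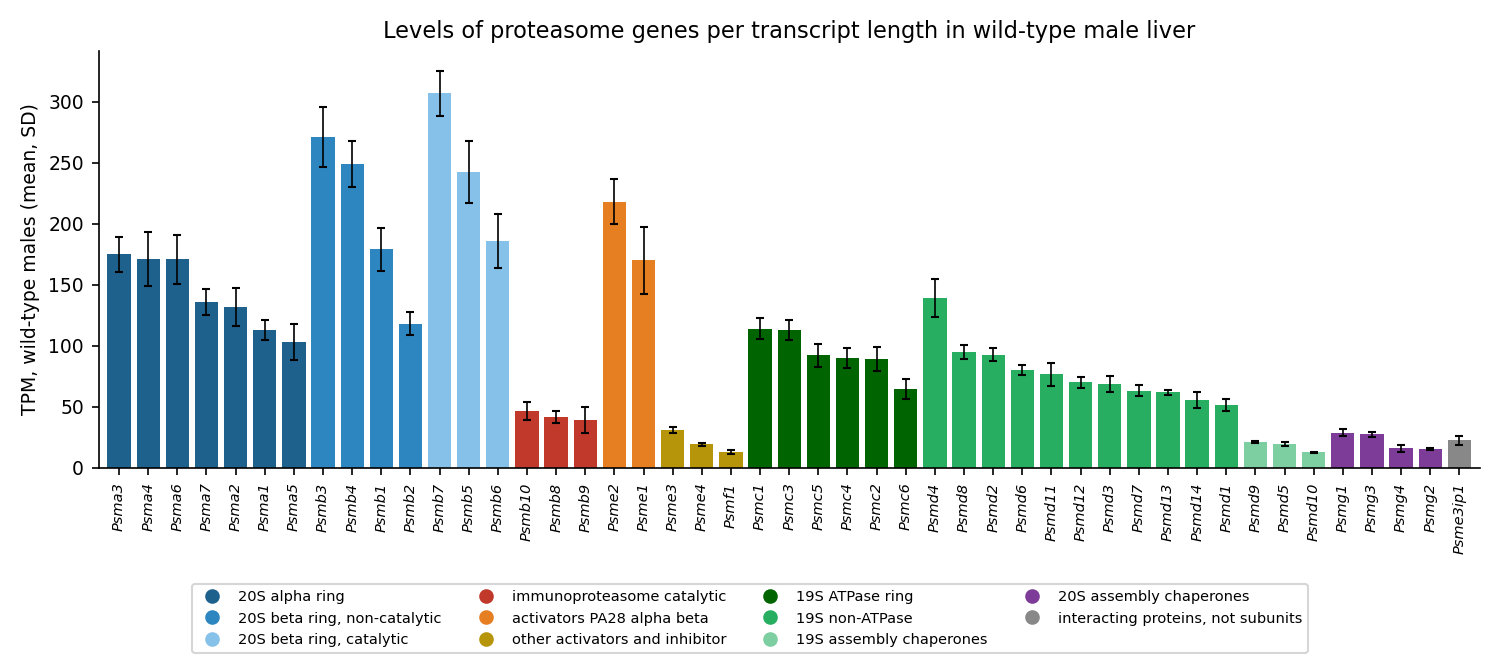
TPM of the tested proteasome genes in wild-type male liver, grouped by role; bars are means and error bars SDs over 3 animals. Psmb7 (307), Psmb3, Psmb4 and Psmb5 are highest, the 19S genes lie between 51.4 and 139, and the immunoproteasome genes lie between 39.0 and 46.4.

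In CPM, standard proteasome genes varied little between animals. Over the 9 males, whatever their genotype, the coefficient of variation of CPM had a median of 6.31% over the 31 standard 20S and 19S subunits, from 2.86% for Psmb7 to 13.5% for Psmd11. It was under 10% in 30 of these 31 genes (96.8%), against 40.1% of the 1890 tested genes whose mean level lay in the same range (51.0 to 195 CPM), where the median was 11.6%. The 5 tested immunoproteasome and PA28 genes were less even over these 9 males, with a median of 18.0% and a range from 13.3% (Psme2) to 33.1% (Psmb9). Their spread includes differences between the genotypes. In the wild types alone (SD, n = 3) Psme2 stood at 104 ± 5.68 CPM, Psmb8 at 30.4 ± 1.42 and Psmb9 at 16.9 ± 3.59. Their mean levels of 17.5 to 96.1 CPM lay partly below the range above, and no genes of matching level were set beside them. These shares describe the 9 livers in CPM and carry no test. The same spread was not computed in TPM. On that scale Psmd7 ran from 55.4 to 87.3 over the males, against 59.6 to 77.7 in CPM. Psma3 ran from 163 to 191 in TPM and from 114 to 134 in CPM.

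The first comparison set homozygous against wild-type males. No gene of the 12427 tested, and so no proteasome gene, passed an adjusted p of 0.05 in edgeR's quasi-likelihood test with Benjamini-Hochberg adjustment (0.0%), and the words higher and lower below therefore describe values and not calls. At an unadjusted p under 0.05, which 14.9% of all genes reached, 5 of the 47 proteasome genes were lower (8.08% of all genes) and 1 was higher (6.82% of all genes). The 5 were Psmb10, Psme1, Psme2, Psmb1 and Psmg2, and the 1 was Psmd7. Values of the 3 homozygotes lay below all 3 wild-type values in 13 of the 47 genes (11.5% of all genes) and above them in 4 (9.27% of all genes). The log2 fold change was negative in 31 of 47 (49.3% of all genes), with a median of -0.08, where the median of all genes was 0.0. With library size alone as the scale 28 were negative (median -0.02), where 4997 of all 12427 genes were negative (median 0.06). After a trend on transcript length was removed 16 were negative and 31 positive (median 0.03), where 6163 of 12426 genes were negative (median 0.0). DESeq2 called 310 genes of all those it tested and limma-voom 0. Psmb10 was among the calls of DESeq2, with an adjusted p of 0.0124, and it was the only one of the named proteasome genes that DESeq2 called.

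Which genes stood apart depended on the scale. The deposited TPM values are scaled to transcript length as well as to the library, and on them the median log2 ratio of homozygous to wild-type means was 0.17 over all genes and 0.08 over the 47. On that scale 1 proteasome gene lay below all wild types, Psmg2 (3.63% of all genes), and 12 lay above them (19.1% of all genes), 8 of which overlapped or lay below the wild types in CPM.

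The standard catalytic subunits differed by little. Psmb5 stood at 111, 108 and 115 CPM in the wild types, 114, 111 and 107 in the heterozygotes and 110, 101 and 99.5 in the homozygotes. Psmb6 stood at 106, 103 and 115, at 116, 104 and 101, and at 93.0, 95.6 and 93.3 in the same order. Psmb7 stood at 153, 157 and 155, at 148, 150 and 150, and at 151, 145 and 144. The homozygotes lay below the wild types in Psmb6 and Psmb7 and overlapped them in Psmb5. The log2 fold changes between homozygous and wild-type males were -0.10 (SE 0.09) for Psmb5, -0.20 (SE 0.09) for Psmb6 and -0.07 (SE 0.08) for Psmb7, with adjusted p-values of 0.606, 0.348 and 0.692 in edgeR's quasi-likelihood test.

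Among the interferon-inducible genes, Psmb10 (GRCm38.p6 chromosome 8, 105935728 to 105938392), which takes the place of Psmb7 in the immunoproteasome, had the smallest p of the 47 genes. It stood at 35.1, 32.2 and 39.0 CPM in the wild types, 39.1, 36.5 and 36.2 in the heterozygotes and 23.6, 26.7 and 26.1 in the homozygotes. All 3 homozygotes lay below all 6 other males in CPM, and the means were 35.4 ± 3.44, 37.2 ± 1.59 and 25.4 ± 1.63 (SD, n = 3 each). The log2 fold change was -0.47 (SE 0.10, a level of 0.72 times the wild type; unadjusted p = 0.000862, adjusted p = 0.156 in edgeR's quasi-likelihood test). It was negative with an unadjusted p under 0.05 in 23 of 23 alternative fits, with adjusted p-values from 0.0124 to 0.461. In TPM it stood at 49.0, 38.0 and 52.2 in the wild types and 35.3, 40.0 and 36.6 in the homozygotes. On that scale the homozygotes overlapped wild-type male 2 but still lay below all heterozygotes (48.3 to 51.7). Heterozygous male 2, whose Arntl (31.5 CPM) and Dbp (6.02 CPM) were like those of the homozygotes, had Psmb10 at 36.5 CPM, and the homozygous female, with Arntl at 1.59 and Dbp at 205 CPM, had it at 38.2.

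The 2 chains of PA28, the ring that opens the core and favours peptide release, lie near each other on chromosome 14 (Psme1 at 55578494 to 55581527, Psme2 at 55587440 to 55591101) and were also lower. Psme1 stood at 97.4, 83.1 and 94.4 CPM in the wild types, 91.8, 88.8 and 101 in the heterozygotes and 52.8, 76.8 and 72.2 in the homozygotes. Psme2 stood at 98.5, 105 and 110, at 98.5, 103 and 106, and at 69.2, 84.7 and 90.2 in the same order. In both genes all 3 homozygotes lay below all 6 other males in CPM, and homozygous male 1 was the lowest. In TPM the groups overlapped, with Psme1 at 112 to 163 in homozygotes against 139 to 192 in wild types and Psme2 at 166 to 203 against 199 to 236. The log2 fold changes were -0.44 (SE 0.14) for Psme1 and -0.36 (SE 0.11) for Psme2, with unadjusted p-values of 0.0127 and 0.0113 and adjusted p-values of 0.25 and 0.242 in edgeR's quasi-likelihood test. Without homozygous male 1 they were -0.30 and -0.25.

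Psmb8 and Psmb9, the remaining immunoproteasome genes, which lie in the MHC region of chromosome 17 (Psmb8 at 34198195 to 34201454, Psmb9 at 34182030 to 34187330), followed that single animal. Psmb8, the counterpart of Psmb5, stood at 32.0, 29.5 and 29.7 CPM in the wild types, 33.1, 35.7 and 39.6 in the heterozygotes and 17.1, 30.6 and 29.3 in the homozygotes. Psmb9, the counterpart of Psmb6, stood at 20.9, 16.1 and 13.8, at 19.5, 21.0 and 26.8, and at 5.88, 18.5 and 15.4. Homozygous male 1 was the lowest of the 10 livers in both, and the other homozygotes overlapped the wild types. The log2 fold changes were -0.24 (SE 0.19) and -0.35 (SE 0.35), with adjusted p-values of 0.57 and 0.649 in edgeR's quasi-likelihood test. Without homozygous male 1 they were -0.02 and 0.0, while that of Psmb10 was -0.42. The same animal was the lowest of all in Tap1 (21.1 CPM), Tap2 (24.4) and B2m (910), so its low values reached beyond the proteasome, and the median log2 fold change of the 5 interferon-inducible genes was -0.36 with it and -0.25 without it.

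**Figure D2:**
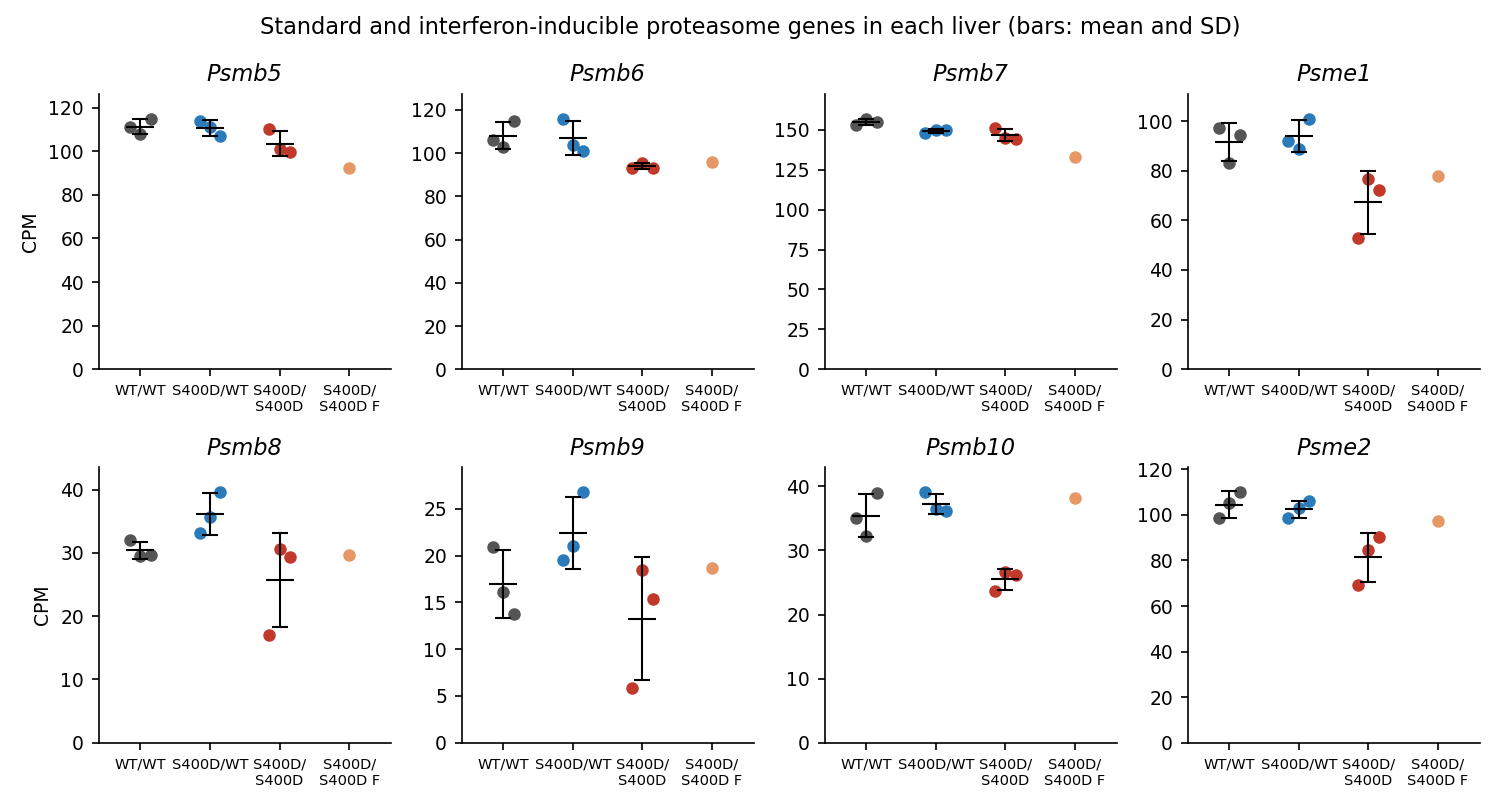
CPM of the 3 standard catalytic genes, their 3 immunoproteasome counterparts and the PA28 genes in each liver; points are animals (F, the female), black bars the mean and SD over 3 males. On this scale Psmb10, Psme1 and Psme2 in the homozygous males lie below all other males, whereas Psmb8 and Psmb9 are low in 1 homozygous male only.

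Markers of other cell types leaned the other way, and in bulk tissue fewer cells of a type and less RNA per cell cannot be told apart. All 12 macrophage markers and all 9 markers of sinusoidal endothelium had a positive log2 fold change in homozygous against wild-type males, each with a median of 0.63, as had 7 of 8 tested lymphocyte markers (median 0.59), while both tested neutrophil markers were negative. Summed over the list, macrophage markers took 192 to 605 CPM in the wild types, 245 to 567 in the heterozygotes and 514 to 558 in the homozygotes, and none of the 12 was at 0 in all males. Endothelial markers took 121 to 302, 175 to 271 and 281 to 286 CPM, and lymphocyte markers 8.31 to 20.5 CPM in wild types and heterozygotes and 17.1 to 24.4 in homozygotes. Their part in the values of the interferon-inducible genes was not tested.

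The share of immunoproteasome transcripts at each catalytic position puts both forms on 1 scale. At the beta2 position, Psmb10 made up 13.4%, 11.7% and 14.1% of the TPM of Psmb10 and Psmb7 in the wild types, 14.9%, 13.7% and 13.8% in the heterozygotes and 9.25%, 10.7% and 10.2% in the homozygotes. All homozygous males lay below all others, and the difference of 10.1% ± 0.741 from 13.1% ± 1.22 (SD, n = 3 each) had p = 0.1 in a two-sided exact permutation test, the smallest value 3 against 3 animals can give (adjusted p = 0.36 over 9 comparisons). At the beta5 position the share of Psmb8 was 14.7% ± 0.739, 17.1% ± 1.75 and 13.5% ± 3.99 in the 3 genotypes. At the beta1 position the share of Psmb9 was 17.3% ± 3.48, 21.8% ± 3.86 and 15.3% ± 6.9. At both of these positions the homozygotes overlapped the wild types (exact permutation p = 1.0 and 0.8). The female stood at 15.8% for beta2, above all 9 males, 16.8% for beta5 and 20.7% for beta1.

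These shares depend on which transcripts are summed. Curated RefSeq transcripts held 50.0% of the Psmb8 reads, 39.6% of the Psmb9 reads and 49.3% of the Psmb6 reads, the rest standing on predicted transcripts. With curated transcripts alone the Psmb8 share was 7.93%, 9.34% and 7.27% in wild types, heterozygotes and homozygotes, and the Psmb10 share was 14.7%, 15.9% and 11.9%. The homozygotes remained the lowest at beta2, with 10.6% to 12.8% against 13.5% to 16.6% in the other males.

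**Figure D3:**
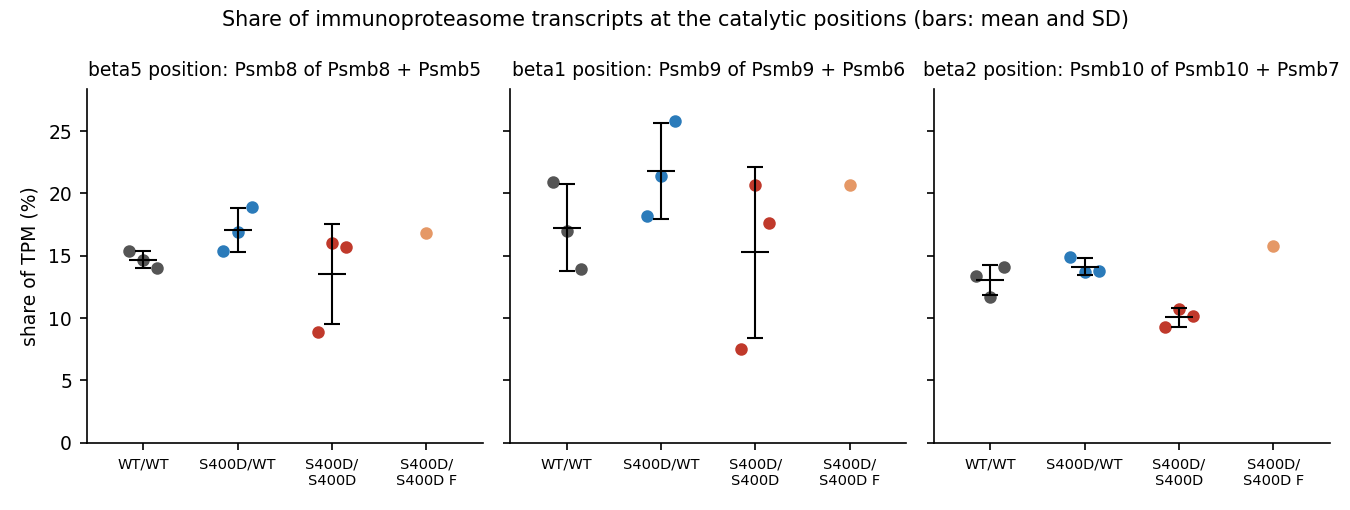
Share of the immunoproteasome gene in the summed TPM of each catalytic pair, in percent, for each liver; points are animals (F, the female), black bars the mean and SD over 3 males. At beta2 the homozygous males (9.25% to 10.7%) lie below the other males (11.7% to 14.9%), and at beta5 and beta1 only homozygous male 1 stands low.

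Of all 14 standard genes of the 20S core, 12 had a negative log2 fold change (49.3% of all genes) and 7 lay below all wild types without overlap in CPM (11.5% of all genes). Their median was -0.10, and it was 0.03, with 3 negative, once a trend on transcript length was removed. In TPM none of the 14 lay below all wild types, and Psma6, Psma7 and Psmb7 lay above them. Psmb1, a non-catalytic beta subunit, stood at 102, 103 and 110 CPM in the wild types, 108, 94.0 and 102 in the heterozygotes and 89.3, 88.7 and 88.6 in the homozygotes. The homozygotes lay close together and below all 6 other males, with a log2 fold change of -0.24 (SE 0.09, unadjusted p = 0.0235, adjusted p = 0.277 in edgeR's quasi-likelihood test). With the length trend removed it was -0.11 (adjusted p = 0.594), and in TPM the homozygotes (162 to 174) overlapped the wild types (159 to 193). All 4 non-catalytic beta genes lay below the wild types in CPM (-0.24 to -0.11). Of the alpha genes 1 did, Psma4 (-0.12), and their range was -0.14 to 0.04.

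The 4 chaperones of 20S assembly also had negative log2 fold changes. Psmg2, which pairs with Psmg1 to start the alpha ring, stood at 8.91, 11.3 and 9.17 CPM in the wild types, 10.9, 9.44 and 9.47 in the heterozygotes and 8.11, 8.08 and 7.17 in the homozygotes. The homozygotes were below all other males, with a log2 fold change of -0.32 (SE 0.14, unadjusted p = 0.0423, adjusted p = 0.317 in edgeR's quasi-likelihood test), a difference past an unadjusted 0.05 in 10 of 23 alternative fits. The other 3 of the family lay between -0.15 and -0.13. With the length trend removed Psmg2 had -0.21, Psmg1 -0.03, Psmg3 0.03 and Psmg4 0.07, and none passed an unadjusted 0.05. Pomp, the maturation factor that is degraded as the first substrate of the new core, stood at 99.4, 104 and 110 CPM in the wild types and 82.2, 93.7 and 93.5 in the homozygotes, with the heterozygotes between 96.8 and 102. Its log2 fold change was -0.22 (SE 0.09, unadjusted p = 0.0416, adjusted p = 0.316 in edgeR's quasi-likelihood test).

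The genes of the 19S cap were divided. Of these 17 genes 10 had a positive log2 fold change, with a median of 0.05, and 4 lay above all wild types in CPM (9.27% of all genes): Psmd1 (0.14) and Psmd2 (0.09), the large scaffold subunits, Psmd3 (0.15) and Psmd7 (0.22). Psmc3 (-0.15) lay below all wild types in CPM and overlapped them in TPM. Psmd7, the partner of the deubiquitinase Psmd14 in the lid, stood at 61.0, 66.1 and 66.7 CPM in the wild types, 59.6, 65.9 and 61.8 in the heterozygotes and 77.7, 72.5 and 75.9 in the homozygotes. All 3 homozygotes lay above all 6 other males, with a log2 fold change of 0.22 (SE 0.08, unadjusted p = 0.0252, adjusted p = 0.278 in edgeR's quasi-likelihood test). The median of the 17 genes was 0.0 without homozygous male 1. Among the activators outside PA28 and the inhibitor, Psme3, Psme4 and Psmf1 had 0.01, 0.15 and -0.12, and all overlapped the wild types in CPM. In TPM Psme4 lay above them (22.5 to 26.0 against 18.4 to 20.3), and Psme3 and Psmf1 overlapped them.

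**Figure D4:**
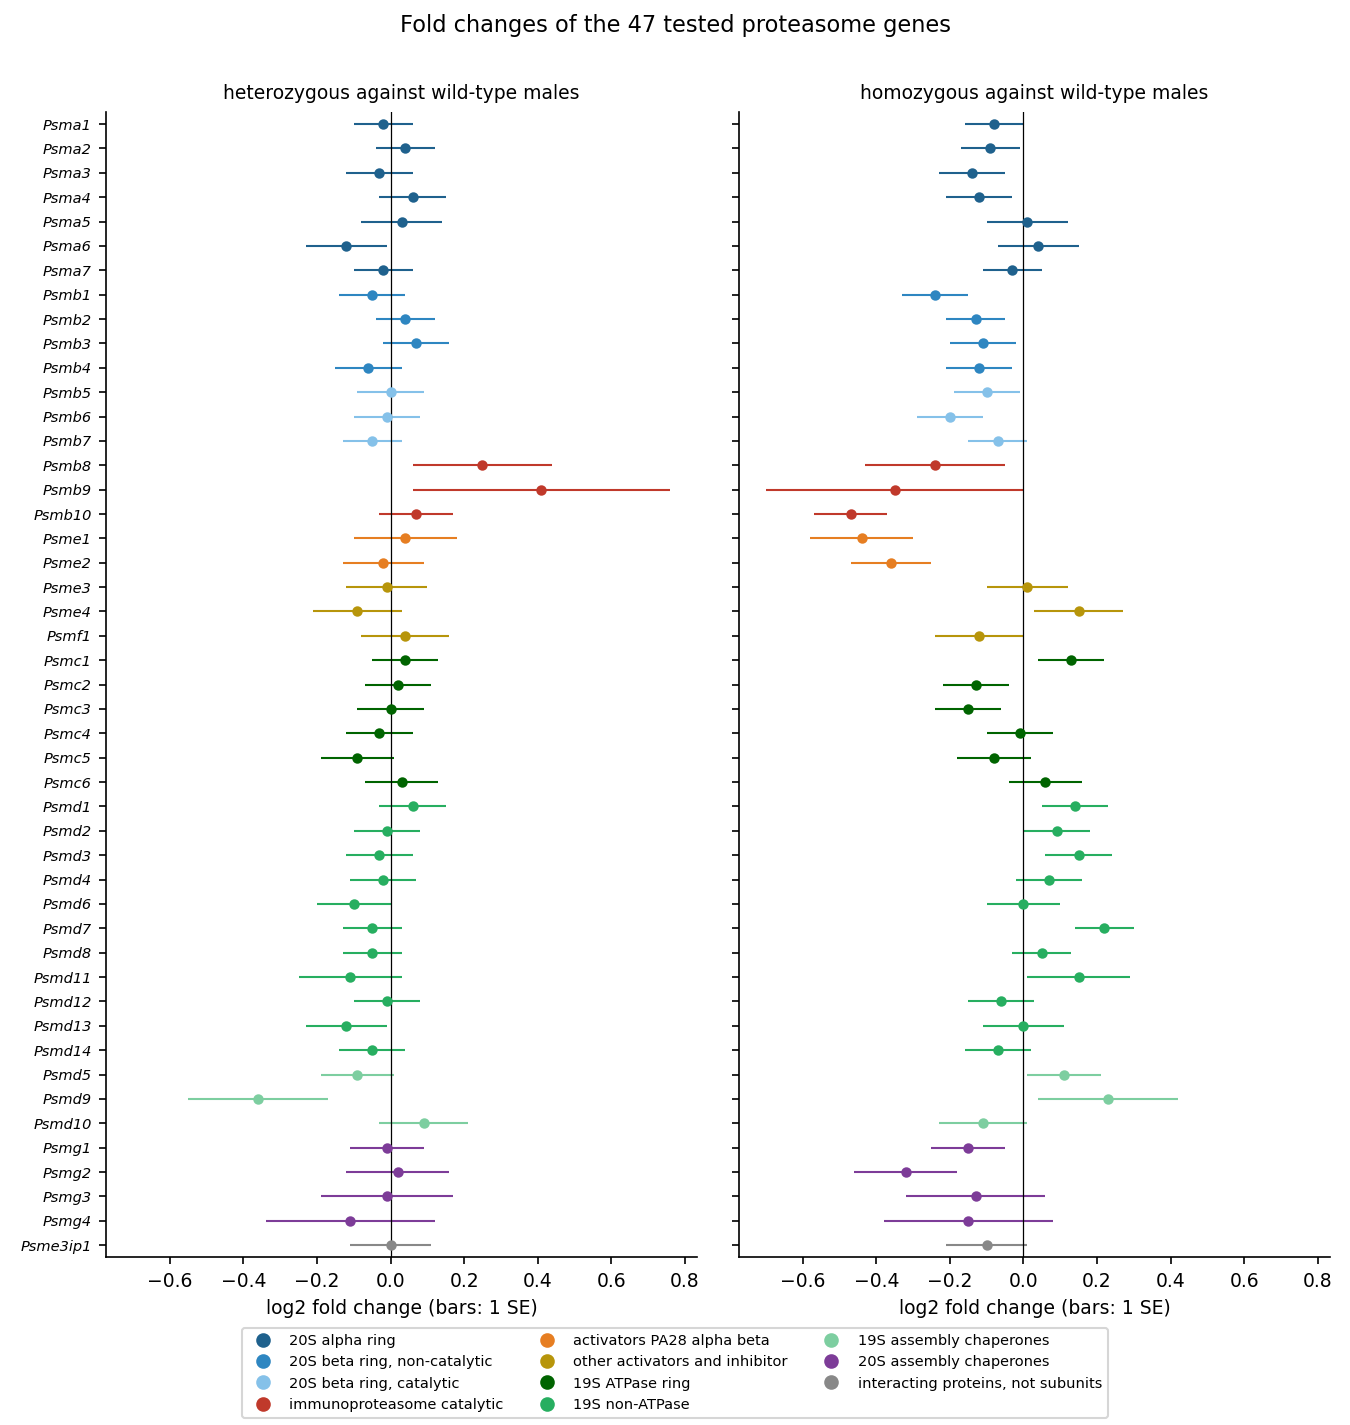
Log2 fold changes of the 47 tested proteasome genes in heterozygous (left) and homozygous (right) against wild-type males, by role; points are estimates and bars 1 SE. In homozygotes the interferon-inducible genes lie between -0.47 and -0.24, Psmg2 lies at -0.32 and the standard subunits lie between -0.24 and 0.22, and in heterozygotes all standard subunits lie between -0.12 and 0.07.

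In edgeR's fit, the standard subunits differed little in size between homozygous and wild-type males. Of the 31 genes, 29 (93.5%) were within 15% of the wild-type level, against 62.1% of the 1890 genes in the same range of levels, with SEs of 0.08 to 0.14 on the log2 scale. The exceptions in that fit were Psmb1 and Psmd7. With library size alone 14 of 14 core and 14 of 17 cap genes were within 15% (50.7% of all genes). With the length trend removed 14 of 14 and 16 of 17 were (54.1% of all genes). This share was not counted in TPM. There Psmd3 stood at 69.8, 62.0 and 74.5 in wild types and 91.3, 86.3 and 79.5 in homozygotes, whereas Psmb5 overlapped (213 to 257 against 232 to 275). These sizes do not show that the genes were unaffected, since the SE of each fold change is itself near the size of most of them.

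Core and cap genes also differ in transcript length. All 14 core genes have an effective length of 458 to 982 bases and all 17 cap genes one of at least 1004, so length and layer cannot be told apart among these 31 genes. Spearman's rho between fold change and length was 0.61 over these genes and 0.63 over all 47, against 0.25 over the 12426 tested genes with a length (across genes of the same 6 libraries, which are not independent replicates). The median length was 704 bases for the 14 core genes and 1290 bases for the 17 cap genes. After a smooth trend of counts on length was removed within each library, the rho was 0.30 over the 31 genes, the median log2 fold change was 0.03 for the core and 0.09 for the cap, and 2 genes were lower at an unadjusted p under 0.05, Psmb10 (-0.38) and Psme1 (-0.31), and 1 higher, Psmd7 (0.29). In that fit 899 of all 12426 genes were lower and 742 higher at that threshold. The 5 interferon-inducible genes had a median of -0.21 there and all stayed negative. On the TPM scale, where values are relative to the rest of a library, Psmb7 stood at 317, 286 and 318 in wild types and 346, 334 and 321 in homozygotes, above all of the wild types rather than below them as in CPM.

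**Figure D5:**
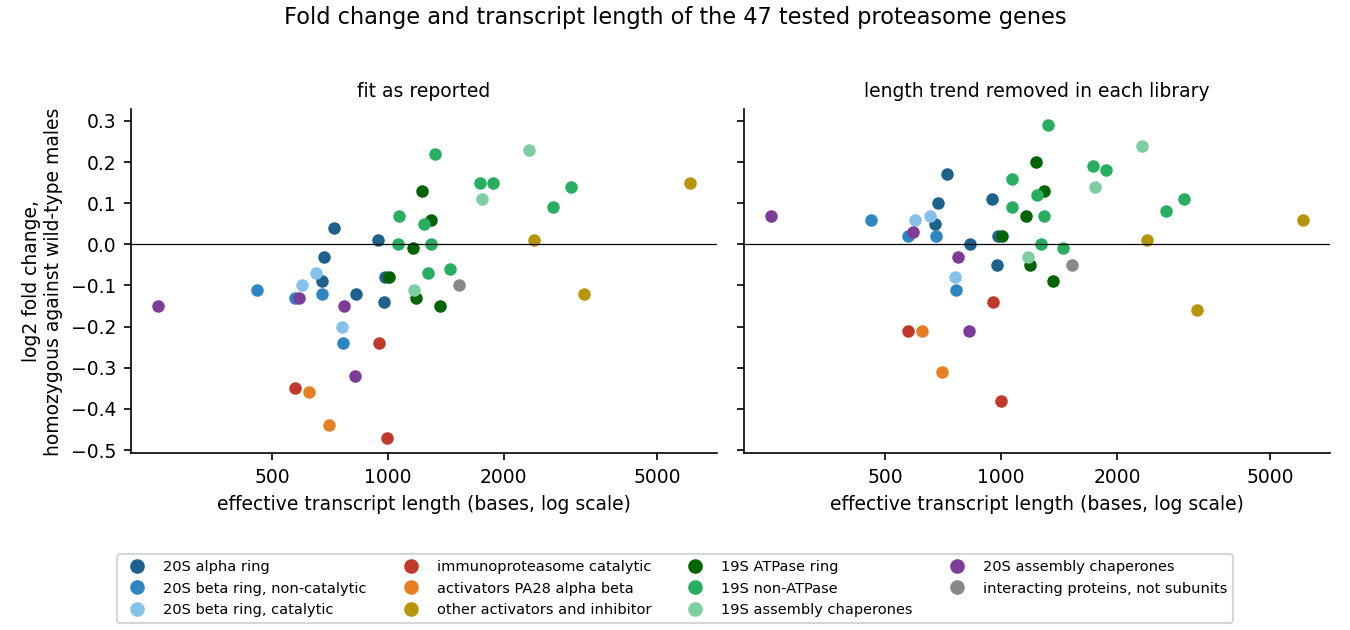
Log2 fold change between homozygous and wild-type males by effective transcript length (log axis, bases) for the 47 tested proteasome genes, as fitted (left) and after a length trend was removed in each library (right); each point is a gene. Of the 14 core genes, 12 lie below 0 on the left and 3 on the right, where the core runs from -0.11 to 0.17. Psmb10 stays lowest on both sides (-0.47 and -0.38).

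Heterozygous against wild-type males gave no proteasome gene past an adjusted p of 0.05 (0.0% of all genes) and none at an unadjusted p under 0.05 in either direction in edgeR's quasi-likelihood test, where the shares over all genes were 1.67% higher and 2.52% lower (4.19% in all). DESeq2 called 7 of all genes and limma-voom 0. The log2 fold change was negative in 31 of the 47 genes (48.4% of all genes) with a median of -0.01. Of the 47 genes, 44 were within 15% of the wild type (66.0% of all genes). With library size alone 9 were negative and 38 positive (median 0.06), where the median of all genes was 0.09. Psmb8 lay above all wild types (4.56% of all genes), with a log2 fold change of 0.25 (SE 0.19). Psmb7 (-0.05), Psmd6 (-0.10) and Psmd9 (-0.36) lay below all wild types (5.8% of all genes). In TPM Psmd9 alone lay below them (2.95% of all genes) and Psmd10 alone above them (4.27% of all genes). The values of Psmb9, Psmb10, Psme1 and Psme2 overlapped those of the wild types, at 0.41, 0.07, 0.04 and -0.02.

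The last comparison set homozygous against heterozygous males. Again no gene passed an adjusted p of 0.05 in edgeR's quasi-likelihood test (0.0%), while DESeq2 called 515 genes, Psmb10 with an adjusted p of 0.00184, and limma-voom 0. At an unadjusted p under 0.05, which 17.2% of all genes reached, 5 proteasome genes were lower (8.92% of all genes) and 2 higher (8.25% of all genes), and 14 lay below all heterozygotes (11.7% of all genes) and 5 above them (10.7% of all genes). In TPM 2 lay below all heterozygotes, Psmb10 and Psmg2 (4.75% of all genes), and 13 above them (18.8% of all genes). Of the 47 log2 fold changes 29 were negative (49.6% of all genes), and their median was -0.05. With the length trend removed 19 were negative and the median was 0.05. The log2 fold changes were -0.55 (SE 0.10) for Psmb10, -0.48 (SE 0.14) for Psme1, -0.33 (SE 0.11) for Psme2, -0.49 (SE 0.19) for Psmb8, -0.35 (SE 0.14) for Psmg2 and 0.27 (SE 0.08) for Psmd7, with adjusted p-values from 0.104 to 0.247 in edgeR's quasi-likelihood test. All 5 interferon-inducible genes lay below the heterozygotes without overlap in CPM, Psmb9 at -0.76 (SE 0.35). Without homozygous male 1 Psmb9 was at -0.41, Psmb8 at -0.27, and Psmb10 at -0.50. Both comparisons use the same homozygous animals, so they are not independent of each other.

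Psmd9, a chaperone that holds 19S ATPases before the ring closes, was added in that comparison. It stood at 36.7, 39.8 and 37.5 CPM in the wild types, 31.6, 25.0 and 32.5 in the heterozygotes and 58.4, 33.9 and 41.2 in the homozygotes. The heterozygotes were the lowest of the males and the homozygotes spanned the wild types. The log2 fold change of homozygous against heterozygous males was 0.59 (SE 0.19, unadjusted p = 0.0114, adjusted p = 0.178 in edgeR's quasi-likelihood test), and 0.34 without homozygous male 1.

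Of 10 measured partners that the symbol rule leaves out, 4 were lower (8.08% of all genes) and 1 higher (6.82% of all genes) at an unadjusted p under 0.05 in homozygous against wild-type males, and the 10 had a median of -0.15. With library size alone 1 was lower (665 of all 12427 genes), and with the length trend removed 2 were (899 of 12426). Beside Pomp the lower genes were Txnl1, a thioredoxin-like protein bound to the cap (-0.28, SE 0.09), Sem1, the smallest lid subunit (-0.29, SE 0.10), and Usp14, a deubiquitinase of the cap (-0.20, SE 0.09). Zfand5, a zinc finger protein that activates the proteasome, was higher (0.40, SE 0.11) at 35.7, 32.4 and 39.9 CPM in the wild types and 44.8, 48.5 and 48.6 in the homozygotes. None passed an adjusted p of 0.05, the lowest being 0.207 in edgeR's quasi-likelihood test. Against heterozygotes Sem1 (-0.36), Usp14 (-0.26) and Txnl1 (-0.21) were lower past an unadjusted 0.05 (8.92% of all genes). Against wild types the heterozygotes had 0 genes of the list past it (4.19% of all genes).

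The NRF1 arm, which supplies new proteasomes and is listed here together with Nfe2l2 and Keap1 of the NRF2 pathway, was split between homozygous and wild-type males. Nfe2l1, the gene of NRF1, stood at 114, 99.0 and 124 CPM in the wild types, 91.8, 101 and 109 in the heterozygotes and 108, 119 and 120 in the homozygotes, which overlapped throughout (log2 fold change 0.04, SE 0.12, for homozygotes against wild types). Of the 13 genes of this list 7 were positive and 6 negative, with a median of 0.02, and with the length trend removed 3 were positive and 10 negative (median -0.05). At an unadjusted p under 0.05, where 6.82% of all genes were higher and 8.08% lower, Ngly1, the glycanase that activates NRF1, was higher (0.25, SE 0.11) and Nfe2l2, the gene of NRF2, lower (-0.31, SE 0.13). Against heterozygotes they had 0.26 and -0.31 and Sel1l, a part of the ER degradation complex, 0.25 (8.25% of all genes higher and 8.92% lower). In heterozygotes against wild types Mafk, a small Maf partner, had -0.50 (SE 0.20), where 2.52% of all genes were lower. In that comparison 11 of the 13 were negative (48.4% of all genes), with a median of -0.11. With library size alone 7 of 13 were, against 3865 of all 12427 genes.

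Genes of ubiquitin supply and shuttling did not pass an unadjusted 0.05 in homozygous against wild-type males (0 of 18, median 0.05), a threshold that 14.9% of all genes passed. Against heterozygotes 4 were higher (8.25% of all genes) and 1 lower (8.92% of all genes): the polyubiquitin gene Ubb (0.55, SE 0.15), the E1 enzyme Uba6 (0.60, SE 0.19), the shuttle Ubqln4 (0.47, SE 0.16) and the receptor Sqstm1 (0.30, SE 0.13) were the higher ones. Ubb stood at 682, 659 and 721 CPM in wild types, 586, 603 and 566 in heterozygotes and 999, 671 and 907 in homozygotes. In heterozygotes against wild types 0 of 18 passed (4.19% of all genes).

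Antigen processing genes, only some of which share the interferon response with the immunoproteasome, were split. In homozygous against wild-type males 8 of 15 were positive and 7 negative, with a median of 0.0. The list includes the ER chaperones Calr, Canx and Pdia3. Only Calr, a chaperone of the peptide loading complex, passed an unadjusted 0.05 (-0.32, SE 0.12), which 14.9% of all genes passed. Tap2, a chain of the peptide transporter, was lower than in heterozygotes (-0.49, SE 0.13), at 34.1, 31.0 and 33.9 CPM in wild types, 37.6, 41.6 and 39.1 in heterozygotes and 24.4, 33.9 and 26.0 in homozygotes. In heterozygotes against wild types the MHC class I transactivator Nlrc5 was lower (-0.49, SE 0.15) and Irf1 higher (0.49, SE 0.19), where 2.52% of all genes were lower and 1.67% higher. Whether the list differs from Psmb10, Psme1 and Psme2 was not tested.

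The homozygous female lay within the range of the males in 31 of the 47 genes in CPM. Her CPM lay below all 9 males in 16 of the 47 genes (34.0%, against 11.1% of all genes) and above all of them in 0 (11.6% of all genes). The 16 included 9 of the 11 non-ATPase cap genes, such as Psmd2 at 163 CPM (males 185 to 205) and Psmd14 at 39.7 (males 46.7 to 55.5). Psmb5 stood at 92.4 (males 99.5 to 115) and Psmb7 at 133 (males 144 to 157). The 5 interferon-inducible genes lay within the range of the males, and Psmd7 (58.6 CPM), higher in the homozygous males, was below every male. In TPM the picture turned: she lay above all 9 males in 10 of the 47 genes (21.3%, against 21.8% of all genes) and below them in 1, Psma3 (2.13%, against 3.99%). On that scale Psmb10 stood at 58.3 (males 35.3 to 52.2) and Psma7 at 161 (males 124 to 150), while Psmd2, Psmd7, Psmd14, Psmb5 and Psmb7 lay within the males. With 1 animal and no other female, sex and the animal cannot be told apart.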

How the data were processed

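Liver RNA of 10 mice was sequenced after poly(A) selection, per the labels' protocols. The authors deposited, for 77712 transcripts, expected counts (estimated reads per transcript, unscaled), FPKM (scaled by the authors to length and library) and TPM (scaled by the authors to a fixed sum). HISAT, Bowtie2 and the build GRCm38.p6 stand in the submitters' processing notes. Versions, roles, the counting program and strand use were not given in the sources used here. Hence antisense or overlapping genes and processed copies may share reads with the genes named.

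Transcripts were summed to 19271 genes, of which 19214 matched RefSeq. Nonzero sums were whole (tolerance 0.05 reads) in 94.5% of cases and were rounded. The 9 males were fitted together with edgeR 4.0.16 (R 4.3.3; quasi-likelihood test, TMM factors, edgeR's filter by group, Benjamini-Hochberg adjustment over 12427 genes, threshold 0.05, 6 residual degrees of freedom). The fit was also run on simulated counts with known changes, and the outcome is not reported here. CPM uses TMM factors over the 10 libraries, fold changes are log2, positions count from 1, and effective length is reads per unit of FPKM and library size. Alternatives were DESeq2 1.42.0, limma 3.58.1 (voom, or on log2(FPKM + 1) and log2(FPKM + 0.1)), other scalings, filters, sample sets and transcripts, a length trend removed by loess, and the omission of each of 9 animals. TPM in place of CPM for the overlap counts was added after the values were seen. The female entered no test.

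Genes and lists were chosen with earlier results of these data known. Values per library are given for 8 genes (the catalytic pairs, Psme1 and Psme2) and for up to 6 genes per comparison and direction with the smallest unadjusted p under 0.05. Of the other lists (partners, NRF1 arm, ubiquitin supply, antigen processing) up to 4 genes per comparison are named by the same rule, and Nfe2l1, Pomp and Htra2 always. Genes named as lying apart from a group, the single values of Tap1, Tap2, B2m, Arntl and Dbp, and the female's examples were chosen after their values were seen. The values of some listed genes are not reported here.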

Additional observations from a re-analysis of the deposited data

How the results depend on the processing

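For each comparison 14 alternative fits and 9 fits without 1 animal each were run. The count of called genes, 0 in each comparison in edgeR, was 310, 7 and 515 by DESeq2 for homozygous against wild-type, heterozygous against wild-type and homozygous against heterozygous males, and 1, 0 and 1 by limma on log2(FPKM + 1) without a filter. Leaving out an animal gave 0 to 18 (the 18 without wild-type male 1), 0, and 0 to 6 called genes (the 6 without homozygous male 2).

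Homozygous against wild-type males: 5 lower and 1 higher proteasome genes at an unadjusted 0.05 became 3 lower with library size alone, 2 lower with the length trend removed, and 2 higher (3 without a filter) with limma on FPKM. Over all genes 1004 lower of 12427 became 665 with library size alone, and 899 of 12426 with the length trend removed. Without an animal there were 3 to 5 lower and 0 to 2 higher. The core median of -0.10 was -0.05 with library size alone or FPKM and 0.03 with the length trend removed (-0.12 to -0.07 without an animal), and the cap median of 0.05 was 0.11 with library size alone or FPKM (0.0 to 0.07 without an animal). The median of all genes was 0.06 with library size alone and 0.0 with the length trend removed. Heterozygous against wild-type males: the core median was 0.06 and the cap median 0.05 with library size alone (0.09 over all genes), and both were 0.05 with FPKM. Fitting only those groups gave 1 lower and 1 higher gene, and leaving out an animal 0 to 1 of each. Homozygous against heterozygous males: 5 lower and 2 higher became 8 lower by DESeq2, 10 lower with FPKM without a filter, 2 lower and 4 higher with the length trend removed and 5 higher with curated transcripts, and 4 to 6 lower and 2 to 4 higher without an animal. Over all genes 1109 lower and 1025 higher became 989 and 890 with the length trend removed. Such counts over all genes in the other fits are not reported here. There the core median was 0.03 with the length trend removed and the cap median 0.02 to 0.10 without an animal. With TPM in place of CPM, chosen after the values were seen, the members lying apart from the other group went from 13 lower and 4 higher to 1 and 12 (homozygous against wild-type), from 3 and 1 to 1 and 1 (heterozygous against wild-type) and from 14 and 5 to 2 and 13 (homozygous against heterozygous). The cause of these shifts was not tested, apart from the genes and animals left out. With curated transcripts the immunoproteasome shares were 7.93%, 9.34% and 7.27% at beta5 and 14.7%, 15.9% and 11.9% at beta2.

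The replicate numbers did not pair the samples: correlations of the deviations of same-numbered animals ran from -0.435 to 0.21, and the own number gave the best match in 4 of 18 cases. With the replicate block, 0 genes were called in each comparison, 4 proteasome genes were lower and 1 higher in homozygous against wild-type males, 0 and 0 in heterozygotes, and 5 and 2 in homozygous against heterozygous males.

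With 3 animals a genotype and SEs of 0.08 to 0.14 for standard subunits, differences of the size seen in most of them are not detectable here.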
